A study of Homo sapiens with 13 samples.

Results

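INSM1, INSM2, FOXA1, FOXA2, NKX2-1, PROX1, MYT1, MYT1L and ST18, 9 transcription factor genes that set or mark cell lineage, were followed through treatment of small cell lung cancer (SCLC) cells with FHD-286. They were taken by symbol from the deposited RNA-seq tables of the lines H82 and H146, and all 9 were among the 56831 genes listed there. FHD-286 is a small molecule that inhibits SMARCA4 and SMARCA2, the ATPases of the BAF chromatin remodelling complexes. H82 belongs to the SCLC-N subtype and H146 to the SCLC-A subtype, and both are established human lines. The libraries compared were 3 of untreated H82, 3 of H82 treated with 100 nM FHD-286 for 14 days, 3 of untreated H146 and 4 of H146 treated with the same dose for the same time. The labels name no vehicle for the untreated cells and do not say whether replicates were separate cultures, so the p-values measure only the spread between these libraries, which may be technical. Each line stands for its subtype alone.

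The 9 genes form 5 groups by what their proteins do. INSM1 and INSM2 are zinc-finger repressors of neuroendocrine and endocrine cells, and INSM1 carries a SNAG domain that binds the LSD1-CoREST demethylase complex. FOXA1 and FOXA2 are winged-helix pioneer factors of the endoderm that open chromatin in lung, liver and pancreas. NKX2-1 is the homeodomain factor of lung and thyroid epithelium and is a diagnostic marker of many lung tumours. PROX1 is a homeodomain factor of lymphatic endothelium, liver and neural progenitors. MYT1, MYT1L and ST18 are the zinc-finger factors of the MYT family, which work in neural and endocrine differentiation. MYT1L is known to repress non-neuronal genes through the SIN3 corepressor.

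In the GENCODE annotation, release 44, on hg38, INSM1 lies at chr20:20368104-20370949 and INSM2 at chr14:35534164-35537054, both on the plus strand with 1 exon. FOXA1 lies at chr14:37589552-37596059 and NKX2-1 at chr14:36516392-36521149, both on the minus strand. FOXA2 lies at chr20:22580998-22585455 on the minus strand, and MYT1 at chr20:64102394-64242253 on the plus strand of the same chromosome. PROX1 spans chr1:213983181-214041510 on the plus strand, and MYT1L spans chr2:1789113-2331664 on the minus strand. The values are sums over all exons of a gene and do not separate its transcripts.

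The RefSeq promoter table (GRCh38.p14) held entries for 5 of the 9 genes, 9 promoters in all, and the 250 bases before each start were searched. The stretches of INSM2 and MYT1 are shown because both genes fell in both lines, and that of FOXA1 because it rose in H146. All 3 are written 5′ to 3′ on the gene's strand, and capitals mark matches to the motifs listed after them. That of INSM2 is chr14:35533914-35534163 on the plus strand, that of MYT1 chr20:64164202-64164451 on the plus strand, and that of FOXA1 chr14:37595349-37595499 on the minus strand, where the 151 bases before the nearest annotated exon are given. The MYT1 start of RefSeq lies 62058 bases inside the longer GENCODE gene.
INSM2: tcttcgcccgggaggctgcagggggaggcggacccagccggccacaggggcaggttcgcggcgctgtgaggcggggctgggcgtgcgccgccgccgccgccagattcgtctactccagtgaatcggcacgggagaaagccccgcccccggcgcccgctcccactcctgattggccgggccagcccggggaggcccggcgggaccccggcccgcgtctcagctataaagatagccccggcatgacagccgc
MYT1: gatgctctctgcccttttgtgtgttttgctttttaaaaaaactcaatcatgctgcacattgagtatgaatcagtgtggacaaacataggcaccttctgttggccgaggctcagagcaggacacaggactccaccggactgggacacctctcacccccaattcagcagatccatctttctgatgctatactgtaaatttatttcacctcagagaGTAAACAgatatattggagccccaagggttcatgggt
FOXA1: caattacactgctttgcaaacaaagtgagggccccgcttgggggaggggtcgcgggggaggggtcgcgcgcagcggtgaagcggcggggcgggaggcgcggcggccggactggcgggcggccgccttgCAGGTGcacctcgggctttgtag
The motifs, searched on both strands, were the E-box CANNTG and its forms CAGCTG and also CAGATG, the FOXA core TGTTTAC, the NKX2-1 core CAAGTG, itself a form of the E-box, and the MYT core AAAGTTT. Over all 35116 promoters of the table, CANNTG occurred in 61.8%, CAGCTG in 14.0%, CAGATG in 12.2%, CAAGTG in 9.50%, TGTTTAC in 2.98% and AAAGTTT in 3.75%. FOXA1 held 4 CANNTG matches in its 250 bases, the farthest of them 122 bases before the start. The nearest, 12 bases before the start and outside the stretch shown, is also a match to CAAGTG. MYT1 held 1 match to TGTTTAC, which begins 37 bases before the start and is read here on the other strand, and no match to the other motifs. INSM2 held no match to any of them. These matches describe letters and not binding.

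Expression is given as TPM, a unit that corrects for gene length and sums to the same total in every library, so a level here is a share of all RNA measured. Reads per library are not in the tables, and precision was taken from the spread between libraries. A difference means treated minus untreated on the scale of log2(TPM + 1), tested with limma over all genes of the line that reached 1 TPM in at least 3 libraries, with Benjamini-Hochberg adjustment, and called at an adjusted p under 0.05. This scale understates changes of genes with low TPM. A gene that reached 1 TPM in no library of one group passed this filter only through the other group and had to differ, so such genes are named as such and given by their levels, with no p. They were 366 genes seen through treated and 3041 through untreated libraries in H82, and 1269 and 431 in H146. The median of all tested genes moved too, by -0.56 in H82 and by 0.25 in H146. Dividing by median-of-ratios size factors brought those medians to -0.14 and -0.02. The split of called genes moved with it, from 77.7% lower in H82 to 57.6% and from 32.3% lower in H146 to 54.1%. Mitochondrial transcripts held 22.1% to 24.1% of the TPM in untreated H82 and 12.3% to 14.9% in treated H82, and 7.56% to 8.86% in untreated and 3.82% to 11.4% in treated H146. The number of genes at 1 TPM or more went from between 21227 and 21772 to between 15554 and 16633 in H82 and from between 17476 and 17965 to between 18778 and 19309 in H146. The part of these shifts in the results was not tested.

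Treated H82 replicate 2 stood apart from the other treated H82 libraries in genes of untreated H146 and in epithelial genes. Over 8374 genes replicate 1 stood apart instead, with an SD of the log2 ratio of 0.743 to replicate 2 and 0.700 to replicate 3. Replicates 2 and 3 differed with an SD of 0.399. To describe replicate 2, 113 genes were taken, leaving out the 9 factors. They had at least 20 TPM in every untreated H146 library and at most 0.1 TPM in every untreated H82 library. These H146-only genes summed to 79.8 TPM in treated H82 replicate 1, to 392 TPM in replicate 2 and to 35.6 TPM in replicate 3, which were 0.762%, 3.74% and 0.340% of their sum in untreated H146. In untreated H82 they summed to between 1.13 and 1.34 TPM. In replicate 2 the median gene stood at 1.21% of its untreated H146 level, 26 of the 113 were listed at 0 and 5 were above 20%, the highest of them BHLHE22 at 51.7%. The source of this RNA was not tested. Epithelial genes were also highest in this library, with EPCAM at 3.08, 32.8 and 1.11 TPM and KRT19 at 1.43, 50.2 and 1.15 TPM in replicates 1 to 3. ALB, the liver's main secreted protein, did not follow that pattern, with 515, 310 and 444 TPM in the same order and at most 0.0606 TPM in untreated H82. The H82 results for the factors are therefore given with and without replicate 2, as are the genes named from a list. The 4 treated H146 libraries were not evenly spread either. Replicates 3 and 4 differed with an SD of the log2 ratio of 0.189 over genes, against 0.417 to 0.710 for the other pairs, and no value of theirs was identical.

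**Figure D1:**
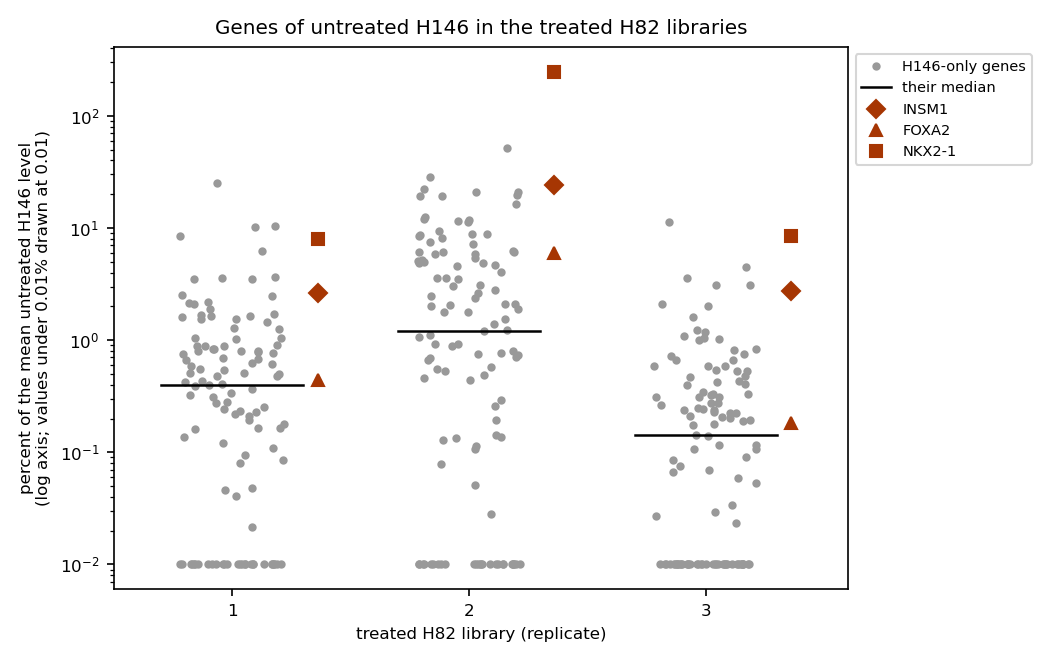
Percent of the mean untreated H146 level (log axis) for 113 H146-only genes (grey points, black line at their median) and for INSM1, FOXA2 and NKX2-1 (brown symbols) in the 3 treated H82 libraries. The grey median is 0.40% in replicate 1, 1.21% in replicate 2 and 0.14% in replicate 3, and INSM1 is at 2.61%, 24.1% and 2.76%. INSM1 was already at 1.02% to 1.28% in untreated H82, whereas the grey genes were chosen for their near absence there, so the 2 are not alike.

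Both untreated lines expressed genes of neuroendocrine cells. A list of 16 secretory genes of neuroendocrine cells summed to between 1510 and 1591 TPM in untreated H82 and to between 4704 and 5143 TPM in untreated H146. The 12 epithelial genes listed summed to between 7.25 and 9.70 TPM in untreated H82 and to between 3273 and 3488 TPM in untreated H146. The inhibitor's targets were present in every library. SMARCA4 RNA ranged from 61.8 to 80.0 TPM in untreated H82, from 51.0 to 106 TPM in treated H82, from 89.5 to 109 TPM in untreated H146 and from 157 to 174 TPM in treated H146. SMARCA4 differed by 0.11 in H82 (adjusted p = 0.752), or by 0.0004 without treated replicate 2, and rose by 0.73 ± 0.11 (SE) in H146 (adjusted p = 0.00122), whereas SMARCA2 fell by 0.70 in H146 (adjusted p = 0.00597) and differed by -0.24 ± 0.20 in H82 (adjusted p = 0.34). The H82 value of SMARCA2 was -0.37 without treated replicate 2 and turned to 0.66 under quantile normalization, where it passed (adjusted p = 0.0333).

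The untreated lines held different sets of these factors. MYT1 was the highest of the 9 in untreated H82, at 32.4 ± 2.37 TPM (SD, n = 3), followed by INSM1 at 14.4 ± 1.66 and FOXA1 at 11.9 ± 1.06 TPM, whose libraries overlapped. INSM2 came next at 4.53 ± 0.116 TPM, then PROX1 at 1.65 ± 0.237 and ST18 at 0.962 ± 0.388 TPM. MYT1L was at 0.117 ± 0.0171 TPM, and FOXA2 and NKX2-1 were listed at 0 in all 3 libraries. In untreated H146 the order began with INSM1 at 1230 ± 151 TPM and FOXA2 at 592 ± 34.7 TPM, both far above FOXA1 at 54.8 ± 9.25 and INSM2 at 41.1 ± 6.63 TPM, which overlapped. MYT1 at 21.6 ± 2.56 and PROX1 at 20.4 ± 5.74 TPM overlapped too, and ST18 at 10.8 ± 2.69, MYT1L at 2.60 ± 0.659 and NKX2-1 at 0.478 ± 0.156 TPM followed. INSM1 alone made up 62.2% ± 1.1 of the summed TPM of the 9 factors in untreated H146, where MYT1 held 1.1% ± 0.1. MYT1 held 49.1% ± 4.1 of that sum in untreated H82.

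Between the untreated lines, 8 of the 9 factors differed, against a background of 70.9% of all 24374 genes tested over both lines. FOXA2 was higher in H146 by 9.21 ± 0.75 (SE; adjusted p = 2.74e-07), a value that the pseudocount sets because untreated H82 is listed at 0, and that was 12.53 with a pseudocount of 0.1. INSM1 was higher by 6.32 ± 0.61 (adjusted p = 1.33e-06). PROX1, INSM2, ST18 and FOXA1 were higher in H146 by 2.98, 2.92, 2.59 and 2.10. MYT1L, 1 of the 8, reached 1 TPM in H146 libraries only, so the filter had fixed its direction. It was at most 0.130 TPM in untreated H82 and at least 1.87 TPM in untreated H146. Its value of 1.67 was 3.61 with a pseudocount of 0.1. MYT1 was the 1 factor lower in H146, by -0.57 ± 0.23 (adjusted p = 0.0392), a call lost without any one of the 6 untreated libraries, under median-of-ratios scaling (-0.32) and with a pseudocount of 0.1 (-0.59). NKX2-1 missed the threshold (0.56 ± 0.25, adjusted p = 0.0664) and passed with a pseudocount of 0.1 (2.49, adjusted p = 0.00818). Here too the pseudocount sets the value, since untreated H82 is listed at 0 and untreated H146 reached at most 0.606 TPM. With 1 line of each subtype, line and subtype cannot be told apart.

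**Figure D2:**
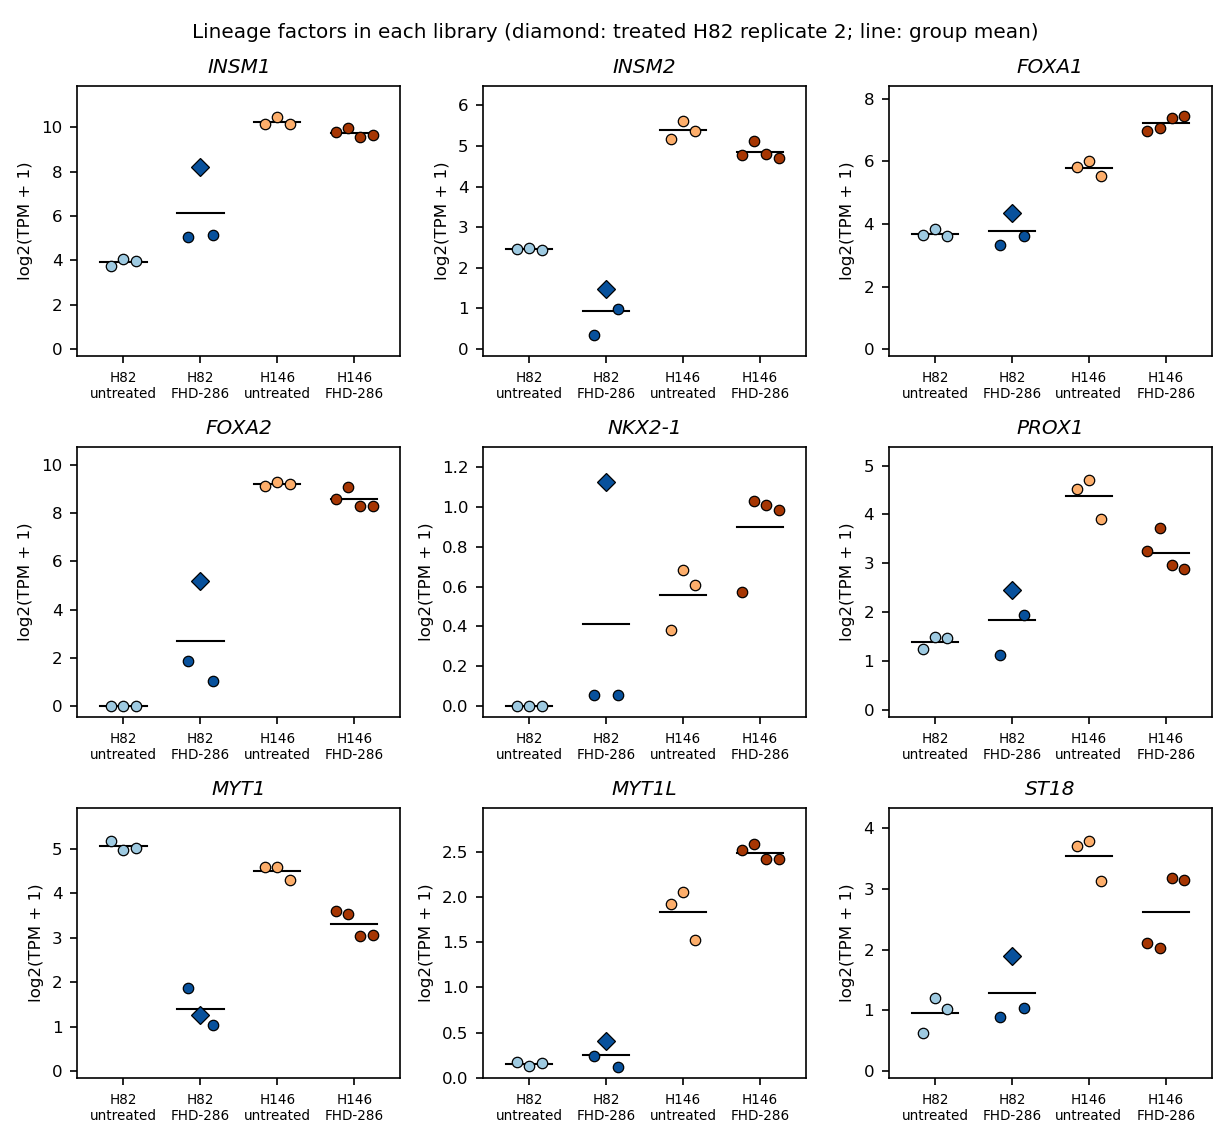
log2(TPM + 1) of the 9 factors in each of the 13 libraries, by line and treatment, with 1 point per library in replicate order, a black line at the group mean and a diamond for treated H82 replicate 2. MYT1 and INSM2 are lower in every treated library than in every untreated library of the same line, FOXA1 is higher in all 4 treated H146 libraries, and the diamond is the highest treated H82 point for every factor but MYT1. Each panel has its own vertical scale.

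Under FHD-286, 7 of the 9 factors could be tested in H82 and 8 in H146. In H82, INSM2 and MYT1 fell and INSM1 rose, while FOXA1, PROX1 and ST18 did not pass the test. Among all 19770 genes tested there, 45.5% were lower and 13.1% higher. FOXA2 passed the filter in H82 only through the treated libraries, so it is given by its levels below and not as a call. Among the other 6 factors tested, 2 were lower and 1 higher, and among the 16363 genes seen at 1 TPM in both groups 36.5% were lower and 13.7% higher. In H146, INSM1, INSM2, FOXA2, PROX1 and MYT1 fell, FOXA1 and MYT1L rose, and ST18 did not pass. Among all 19585 genes tested there, 15.5% were lower and 32.5% higher. Treated and untreated libraries did not overlap for 3 of the 6 factors other than FOXA2 tested in H82, against 67.8% of all tested genes and 61.1% of those seen in both groups. In H146 they did not overlap for 7 of the 8, against 52.9%. The response differed between the lines for 7 of the 9 factors in a test of the interaction of line and treatment, against 59.3% of all 24374 genes tested, and its values are given with each factor. In bulk RNA, fewer cells that express a gene and less of its RNA per cell cannot be told apart.

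**Figure D3:**
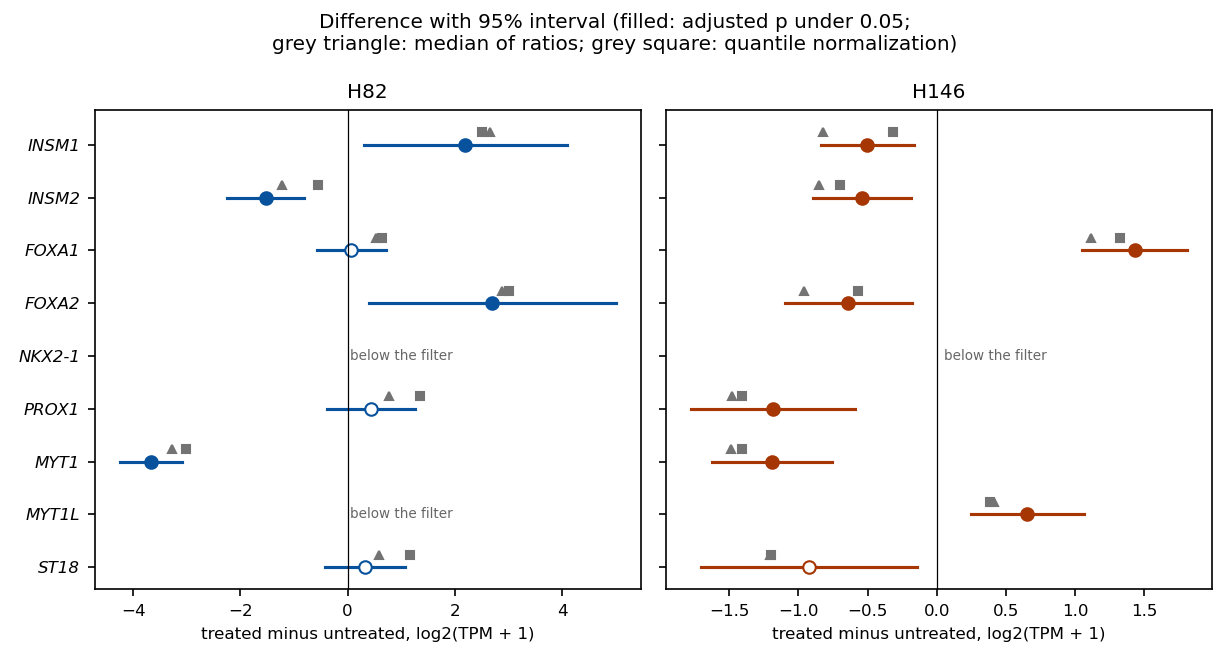
Treated minus untreated difference on the log2(TPM + 1) scale for each factor in H82 (blue) and H146 (brown), with its 95% interval, filled where the adjusted p was under 0.05. Grey triangles and squares give the same difference after median-of-ratios scaling and quantile normalization, and the horizontal scales of the panels differ. MYT1 lies at -3.67 in H82 and -1.19 in H146, and INSM1 lies on opposite sides of 0, at 2.19 and -0.50. FOXA2 in H82, drawn filled, passed the filter only through treated libraries, which fixed its direction.

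MYT1 fell more than any other of the 9 factors in H82, and in H146 by about as much as PROX1. Its TPM was 35.0, 30.5 and 31.5 in untreated H82 and 2.66, 1.38 and 1.05 in treated H82. All treated libraries lay below all untreated ones, and the ratio of the mean TPM of untreated to treated cells was 19.1. The difference was -3.67 ± 0.25 (SE; adjusted p = 0.000131) and ranged from -4.27 to -3.01 over all alternatives, each of them past the threshold where a test was made, with -3.60 without replicate 2. In H146 MYT1 stood at 23.0, 23.1 and 18.6 TPM untreated and at 11.1, 10.5, 7.18 and 7.35 TPM treated. The groups did not overlap, the ratio of untreated to treated means was 2.39, and the difference was -1.19 ± 0.19 (adjusted p = 0.0015). The fall was larger in H82 than in H146 by 2.48 ± 0.31 on the log2 scale (interaction, adjusted p = 3.66e-05), and by 2.42 without treated H82 replicate 2. Under the scalings it was 1.82 and 1.68, and the interaction stayed past the threshold.

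MYT1L, the neuronal member of the family that is best known for keeping neurons from taking other fates, did not follow MYT1. In H146 its TPM was 2.79, 3.15 and 1.87 untreated and 4.73, 5.01, 4.37 and 4.35 treated, with no overlap. It rose by 0.66 ± 0.18 (adjusted p = 0.0167), or 1.77 times by the ratio of means. This call ended under median-of-ratios scaling (0.41, adjusted p = 0.0777), under quantile normalization (0.38, adjusted p = 0.0824) and without untreated replicate 3 (0.50, adjusted p = 0.0574). In H82 MYT1L was below the filter, at 0.130, 0.0980 and 0.124 TPM untreated and 0.181, 0.325 and 0.0867 TPM treated, and an exact permutation test gave p = 0.4, where the smallest two-sided value for 3 against 3 libraries is 0.1. The difference between the lines, 0.56 ± 0.23, did not pass (adjusted p = 0.0535).

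ST18, the third member, known from pancreatic endocrine cells, showed 2 levels among the treated H146 libraries. Untreated H146 held 12.0, 12.7 and 7.76 TPM, and treated H146 held 3.33 and 3.06 TPM in replicates 1 and 2 but 8.05 and 7.84 TPM in replicates 3 and 4. Replicates 3 and 4 lay within the untreated range, and replicates 1 and 2 lay below it. The difference of -0.92 ± 0.34 missed the threshold (adjusted p = 0.0527), but passed under both scalings (-1.21 and -1.20), without replicate 3 (-1.11) and without replicate 4 (-1.10). In H82 ST18 was at 0.546, 1.32 and 1.02 TPM untreated and at 0.863, 2.73 and 1.06 TPM treated, and the groups overlapped (0.33 ± 0.32, adjusted p = 0.406). That value was 0.02 without treated replicate 2. Quantile normalization called it higher (1.16, adjusted p = 0.0231). The lines differed by -1.25 ± 0.51 (adjusted p = 0.0498), a call lost without treated H82 replicate 2 (-0.94, adjusted p = 0.124) and with a pseudocount of 0.1 (-1.60, adjusted p = 0.0673).

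With these changes the make-up of the MYT family shifted. Shares within a family do not change when a library is multiplied by 1 factor, as median-of-ratios scaling does, but quantile normalization can change them, and they were computed after the TPM values had been seen, so they are given without a test. MYT1 made up 96.7% ± 1.3 (SD, n = 3) of the summed TPM of the 3 genes in untreated H82 and 50.2% ± 20.4 in treated H82, where the sum itself went from between 31.9 and 35.7 TPM to between 2.2 and 4.4 TPM. In H146 the sum went from between 28.3 and 39.0 TPM to between 18.6 and 19.6 TPM. MYT1L rose from 7.4% ± 0.7 to 24.1% ± 2.3 of it, and the lowest treated library, at 22.3%, was above the highest untreated one, at 8.1%. The share of ST18 was 30.6% ± 2.8 and 28.8% ± 13.7, with the treated libraries between 16.5% and 41.1%.

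**Figure D4:**
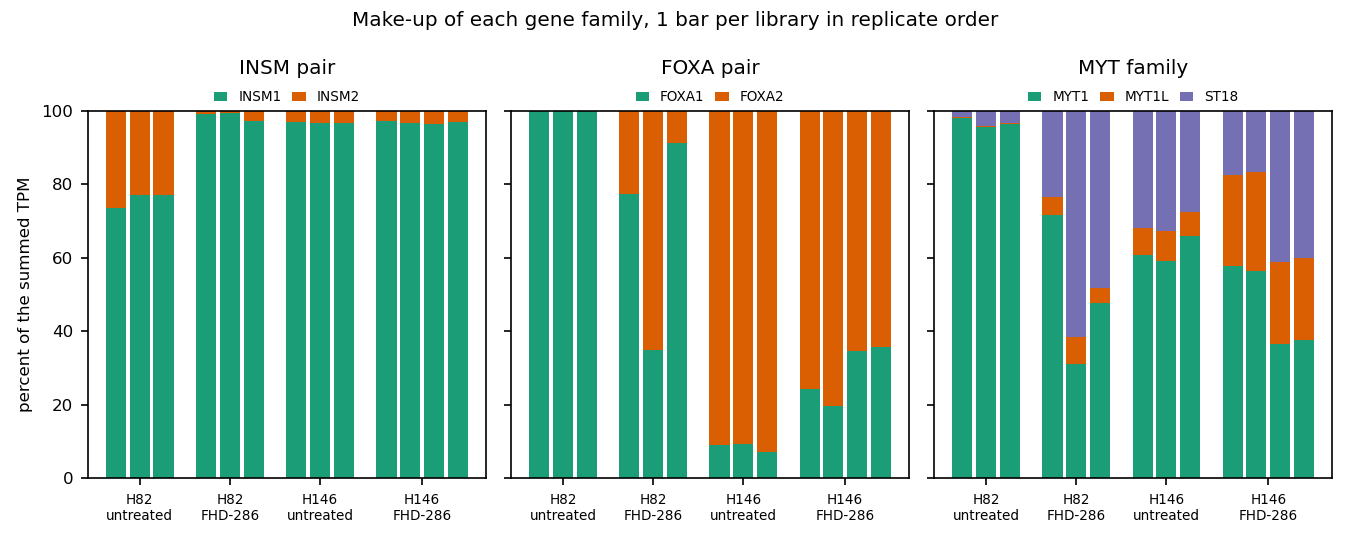
Percent of the summed TPM of the INSM pair, the FOXA pair and the MYT family held by each gene, with 1 bar for each of the 13 libraries in replicate order within the 4 groups. MYT1 (green, right panel) falls from 96.7% on average in untreated H82 to 50.2% in treated H82, and FOXA1 (green, middle panel) rises from 8.5% in untreated to 28.6% in treated H146.

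INSM1 moved in opposite directions in the lines. In H146 it was the most abundant of the 9 factors, at 1140, 1405 and 1144 TPM untreated and 900, 1018, 758 and 804 TPM treated. The groups did not overlap, although the gap was narrow, and the ratio of untreated to treated means was 1.41. The difference was -0.50 ± 0.15 (adjusted p = 0.0219), was -0.82 after median-of-ratios scaling and lost its call under quantile normalization (-0.32, adjusted p = 0.125). It was also lost without untreated replicate 2 (-0.40), treated replicate 3 (-0.44) or treated replicate 4 (-0.47). In H82 INSM1 was at 12.5, 15.8 and 14.8 TPM untreated and at 32.1, 296 and 33.9 TPM treated. Every treated library was above every untreated one, the nearest pair by a factor of 2.03. The difference was 2.19 ± 0.80 (adjusted p = 0.0498) with replicate 2 and 1.15 ± 0.18 (adjusted p = 0.004) without it. The call was lost without untreated replicate 1, 2 or 3 (adjusted p = 0.125, 0.117 and 0.11) and passed in 6 of the 13 alternatives with a test. The response of the lines differed by -2.69 ± 0.84 (adjusted p = 0.0151), by -1.65 without treated H82 replicate 2, and passed in all 20 alternatives.

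The level of INSM1 in treated H82 stayed below that of H146. It reached 2.61%, 24.1% and 2.76% of the mean of untreated H146 in replicates 1, 2 and 3, from 1.02% to 1.28% in untreated H82. The 113 H146-only genes summed to 3.74% of their H146 level in replicate 2. The part of RNA of that kind in the INSM1 value was not tested.

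INSM2, the single-exon relative of INSM1, fell in both lines. In H82 it stood at 4.52, 4.65 and 4.42 TPM untreated and at 0.278, 1.80 and 0.974 TPM treated, without overlap. The ratio of untreated to treated means was 4.46. The difference was -1.53 ± 0.30 (adjusted p = 0.0045), and -1.80 ± 0.27 without replicate 2. It was -1.22 under median-of-ratios scaling and -0.55 under quantile normalization, where the call ended (adjusted p = 0.24), and -2.34 with a pseudocount of 0.1. In H146 the values were 35.1, 48.2 and 40.1 TPM untreated and 26.3, 33.6, 26.8 and 25.1 TPM treated, without overlap. The difference there was -0.54 ± 0.15 (adjusted p = 0.0199), a call lost without untreated replicate 2 (-0.42) or 3 (-0.55). The lines differed by 0.99 ± 0.33 (adjusted p = 0.0214), but by 0.39 under median-of-ratios scaling and -0.10 under quantile normalization, and by 1.78 with a pseudocount of 0.1, so the difference between the lines rested on the scaling and the pseudocount. In treated H82 the pair came to consist almost wholly of INSM1, whose share went from 75.9% ± 2.1 to 98.6% ± 1.2. In H146 that share was 96.8% ± 0.2 untreated and 96.9% ± 0.2 treated.

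FOXA1 rose in H146. Its TPM was 55.1, 63.9 and 45.4 in untreated H146 and 125, 134, 167 and 172 in treated H146. The lowest treated library was 1.95 times the highest untreated one, and the ratio of means was 2.73. The difference was 1.43 ± 0.17 (adjusted p = 0.000324) and stayed past the threshold under all 15 alternatives, between 1.11 and 1.55. In H82 the groups overlapped, with 11.5, 13.2 and 11.2 TPM untreated and 9.03, 19.2 and 11.3 TPM treated (0.07 ± 0.27, adjusted p = 0.842). Without replicate 2 the H82 value was -0.22 ± 0.20 (adjusted p = 0.393). The lines differed by 1.36 ± 0.32 (adjusted p = 0.00295) and by 0.58 under median-of-ratios scaling, where the call was lost (adjusted p = 0.0986).

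FOXA2, the relative that starts endoderm development, fell in H146 while FOXA1 rose. It went from 562, 630 and 585 TPM to 387, 549, 316 and 309 TPM. Treated replicate 2, at 549 TPM, lay only just under the lowest untreated library, and the other treated libraries were clearly lower. The difference was -0.64 ± 0.20 (adjusted p = 0.029), or a ratio of untreated to treated means of 1.52. This call is fragile, since it held in 5 of 15 alternatives and ended on leaving out any library other than treated replicate 2 (adjusted p from 0.0549 to 0.0934), with values between -0.96 and -0.54 throughout. Within the pair, FOXA1 went from 8.5% ± 1.1 to 28.6% ± 7.9 of the summed TPM in H146, and its lowest treated share, 19.6%, was above the highest untreated one, 9.2%.

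In untreated H82 FOXA2 was listed at 0 in all 3 libraries, and treated H82 held 2.62, 35.7 and 1.08 TPM. All 3 treated libraries were above 0, and replicate 2 was far above both others. No fold is given against a group listed at 0. The difference on the log2(TPM + 1) scale was 2.70 ± 0.98, and 1.45 ± 0.30 without replicate 2. With untreated libraries at 0 the pseudocount sets this value, which was 5.60 with a pseudocount of 0.1. The filter had fixed its direction, so no p is given. The call of FOXA2, which enters the counts of higher factors in H82, was lost without any one of the untreated libraries and is not used as support. FOXA2 in treated H82 reached 0.442%, 6.02% and 0.182% of its untreated H146 level, beside 0.762%, 3.74% and 0.340% for the sum of the H146-only genes. Whether the FOXA2 values come from such RNA was not tested. The lines differed in the response by -3.34 ± 1.02, by -2.09 without replicate 2, and by -6.24 with a pseudocount of 0.1. That difference contains the same H82 values, so the pseudocount sets it too, and it is likewise given without a p.

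PROX1 fell in H146, from 22.1, 25.2 and 14.1 TPM to 8.50, 12.1, 6.78 and 6.38 TPM. The groups did not overlap, although the lowest untreated value, 14.1 TPM, came within a factor of 1.16 of the highest treated one. The ratio of untreated to treated means was 2.42, and the difference was -1.18 ± 0.26 (adjusted p = 0.00658), which stayed past the threshold in all 15 alternatives. In H82 PROX1 was at 1.37, 1.80 and 1.77 TPM untreated and at 1.18, 4.51 and 2.87 TPM treated, with overlap (0.45 ± 0.35, adjusted p = 0.305). It passed without treated replicate 1 (0.81, adjusted p = 0.0243) and under quantile normalization (1.34, adjusted p = 0.0198), and was 0.14 without treated replicate 2. The responses differed by -1.63 ± 0.45 (adjusted p = 0.00821), by -1.32 without treated H82 replicate 2, and passed in all 20 alternatives.

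NKX2-1 was hardly expressed in either line and was below the filter in both. In H146 it was at 0.305, 0.606 and 0.524 TPM untreated and at 0.486, 1.04, 1.02 and 0.980 TPM treated. The groups overlapped through treated replicate 1, and an exact permutation test gave p = 0.114, the smallest possible value for 3 against 4 libraries being 0.0286. In H82 NKX2-1 was listed at 0 in the 3 untreated libraries and at 0.0377, 1.18 and 0.0403 TPM in the treated ones (exact permutation p = 0.1, the smallest that 3 against 3 can give). The value of replicate 2 was 247% of the mean of untreated H146, which was itself 0.478 TPM. The highest of the 113 H146-only genes in that library was at 51.7%. Those genes were chosen for high levels in untreated H146, so their percentages and that of NKX2-1 are not alike. The part of RNA of that kind in the NKX2-1 value was not tested.

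Genes near the factors were looked at for a shared response, and 11 neighbours were listed, of which 10 were in the tables. In H82, 2 passed the filter and 1 of them fell, and 7 passed in H146, where 2 fell. For this and every list below, the shares over all tested genes were 45.5% lower and 13.1% higher in H82. In H146 they were 15.5% lower and 32.5% higher. CFAP61, near INSM1, went from 26.0, 17.7 and 23.8 TPM to 2.55, 2.87, 2.40 and 2.43 TPM in H146 (-2.71 ± 0.17, adjusted p = 1.74e-05), beside -0.50 for INSM1. RALGAPA2, also near INSM1, fell in H82 by 1.42 (adjusted p = 0.00321), or by 1.63 without treated replicate 2, where INSM1 rose, and differed by 0.31 ± 0.17 in H146 (adjusted p = 0.155). LINC00261, a long noncoding RNA beside FOXA2, went from between 1.55 and 1.75 TPM to between 0.216 and 0.811 TPM in H146 and passed the filter only through the untreated libraries. The FOXA1 neighbours MIPOL1 and TTC6 differed in H146 by 0.07 ± 0.15 and -0.30 ± 0.19, and MIPOL1 in H82 by -0.17 ± 0.21 (-0.14 without treated replicate 2), and none passed. TTC6 passed in H146 under median-of-ratios scaling (-0.54, adjusted p = 0.0309) and quantile normalization (-0.57, adjusted p = 0.027), and MIPOL1 in H82 turned to 0.81 under quantile normalization (adjusted p = 0.0176). NKX2-8, next to NKX2-1, went from at most 0.685 TPM to at most 1.28 TPM in H146 and passed the filter only through the treated libraries. PAX9 (-0.33 ± 0.25), also next to NKX2-1, did not pass the test there.

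The partners of the SNAG domain moved in both directions. All 10 listed genes of the LSD1-CoREST complex were tested in each line. The shares called were 30% lower and 10% higher in H82, and 10% lower and 20% higher in H146. Each was below the share over all tested genes. In H82, 3 fell and 1 rose, with a median of -0.31 beside -0.56 for all tested genes, and under median-of-ratios scaling 2 fell and 4 rose, with a median of 0.16. GSE1 fell most (-1.65 ± 0.26, adjusted p = 0.00181) and HMG20B rose (1.58 ± 0.15, adjusted p = 0.000304), with -1.75 and 1.60 without treated replicate 2. In H146, 1 fell and 2 rose, with a median of 0.22 beside 0.25, and of -0.10 under median-of-ratios scaling. The gene that fell was RCOR3, by 0.72 (adjusted p = 0.0167). KDM1A, the LSD1 demethylase itself, did not pass in H82 (0.36 ± 0.26, and 0.24 without treated replicate 2) or in H146 (0.30 ± 0.15). Median-of-ratios scaling called it higher in H82 (0.85, adjusted p = 0.0182) and turned its H146 value to -0.02.

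Other repressors with a SNAG domain were followed as well. Of the 7 listed, 5 were tested in H146, where 3 fell and 1 rose. In H82, 3 were tested, 2 of them through 1 group only, and the other, SNAI1, fell (-0.77, adjusted p = 0.00838, and -0.73 without treated replicate 2), a call lost under median-of-ratios scaling (-0.29). The H146 median was -0.76. SCRT1, a neuronal repressor, went from 6.39, 3.84 and 4.93 TPM to 0.569, 0.588 and 0.135 TPM in H82, where it passed the filter only through the untreated libraries. It rose in H146 by 0.73 ± 0.23 (adjusted p = 0.0304), a call lost under both scalings. SNAI2, a repressor of epithelial genes, passed in H82 only through the treated libraries, with at most 0.417 TPM untreated and 1.78, 10.4 and 1.44 TPM in treated replicates 1 to 3. SNAI3 fell in H146 (-1.84 ± 0.21, adjusted p = 0.000323).

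Of the 14 subunits of the SIN3 corepressor, the partner of MYT1L, all were tested in each line. In H82, 5 fell and 5 rose, from ARID4B (-1.33 ± 0.18, adjusted p = 0.000944) to SAP30 (1.52 ± 0.37, adjusted p = 0.0111), with a median of 0.08. Median-of-ratios scaling gave 2 lower and 8 higher, so the balance rested on the scaling, and without treated replicate 2 there were 3 of each, with ARID4B at -1.35 and SAP30 at 1.19. In H146, 3 fell and 4 rose, from ING2 (-0.47 ± 0.16, adjusted p = 0.0347) to SIN3B (0.74 ± 0.12, adjusted p = 0.00153), with a median of 0.16, or -0.15 under median-of-ratios scaling. These H146 counts, 21.4% lower and 28.6% higher, lay near the shares over all tested genes.

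Of 10 listed endoderm factors other than FOXA1 and FOXA2, 4 were tested in H146 and 3 fell. Their median was -0.90 beside 0.25 for all tested genes. The fourth, HNF4G, went from between 3.49 and 4.44 TPM to between 4.62 and 6.79 TPM and did not pass (0.42 ± 0.18, adjusted p = 0.0818). GATA6 fell most, from 33.9, 41.6 and 33.0 TPM to 11.7, 12.6, 11.3 and 11.6 TPM (-1.53 ± 0.13, adjusted p = 7.64e-05). HNF4A and FOXA3 were the others that fell. In H82, 3 were tested. HNF4G went from at most 0.170 TPM to 1.02, 1.96 and 1.35 TPM and passed only through the treated libraries, and neither of the others passed the test. Of the 6 hepatocyte markers, several of them known FOXA targets, 5 passed in H82 only through the treated libraries, and the sixth, TTR, had 1 untreated library at 1.04 TPM. ALB was highest, at 515, 310 and 444 TPM in treated replicates 1 to 3. Their sum was at most 1.40 TPM untreated and between 447 and 756 TPM treated. In H146, 3 were tested, of which APOA1 passed only through the treated libraries, at no more than 1.66 TPM, and neither of the others passed the test. Of 10 lung epithelial genes downstream of NKX2-1, 1 was tested in H82 and did not pass, and 3 were tested in H146, where LAMP3 fell (-1.76 ± 0.28, adjusted p = 0.00138). Of 7 lymphatic endothelial genes tied to PROX1, 2 were tested in each line. ITGA9 went from between 3.45 and 5.06 TPM to between 0.467 and 0.929 TPM in H146, where it passed only through the untreated libraries. In H82 it fell by 0.60 (adjusted p = 0.0468), a call lost without treated replicate 2 (-0.50) and a value that turned to 0.36 under quantile normalization.

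Epithelial genes fell in H146, where FOXA2 fell and FOXA1 rose. Of the 12 tested there, 9 fell and 1 rose, with a median of -1.19, and KRT7, 1 of the 9, passed only through the untreated libraries. KRT19, a keratin of simple epithelia, went from 879, 880 and 1027 TPM to 53.3, 62.2, 60.3 and 57.6 TPM (-3.97 ± 0.11, adjusted p = 1.14e-06), and GRHL2 rose (0.96 ± 0.27, adjusted p = 0.0179). In H82, 8 were tested, 4 of them only through the treated libraries. None of the other 4 passed the test, with or without treated replicate 2, although quantile normalization called CLDN4 and CLDN7 higher. KRT8, among those seen only after treatment, was at most at 0.791 TPM untreated and at 6.67, 23.9 and 3.02 TPM in treated replicates 1 to 3. The secretory genes of neuroendocrine cells, the cells that INSM1 is used to mark, were mixed in both lines. In H82, 6 of 15 tested fell and 4 rose, from SCG3 (-3.11 ± 0.40, adjusted p = 0.000808, and -3.56 without replicate 2) to SCG2 (3.16 ± 0.89, adjusted p = 0.0188, and 2.05 without replicate 2). In H146, 7 of 16 fell and 2 rose, from PCSK2 (-2.64 ± 0.37, adjusted p = 0.000807) to CHGB (1.63 ± 0.17, adjusted p = 0.000186). The medians were -0.76 and -0.32. Without treated replicate 2 there were 8 lower and 3 higher in H82, and median-of-ratios scaling gave 4 lower and 5 higher, so the balance in H82 rested on the scaling and on that library.

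NOTCH signalling is known to act against neuroendocrine fate, although DLL3, an inhibitory ligand on the list, is itself a marker of neuroendocrine tumours. Of 13 NOTCH pathway genes, 12 were tested in H82, where 3 fell and 4 rose, NOTCH3 among the latter only through the treated libraries, and 11 in H146, where 2 fell and 4 rose. The medians were 0.32 and 0.18. The H146 counts, 18.2% lower and 36.4% higher, lay near the 15.5% and 32.5% of all tested genes. In H82 those shares were 45.5% lower and 13.1% higher. Median-of-ratios scaling gave 1 lower and 7 higher in H82, and 3 of each with a median of -0.13 in H146, and without treated H82 replicate 2 there were 2 lower and 4 higher in H82. In H82 the ligand DLL1 rose most (1.61 ± 0.29, adjusted p = 0.00304) and the repressor HEYL fell most (-1.13 ± 0.15, adjusted p = 0.00088), with 1.45 and -1.18 without treated replicate 2. Among the 3 falls in H82, those of NOTCH1 and JAG2 turned to 0.05 and 0.20 under quantile normalization. In H146 the target HEY1 went from 19.9, 24.2 and 19.9 TPM to 83.7, 70.9, 81.2 and 85.6 TPM (1.87 ± 0.13, adjusted p = 2.4e-05), and the ligand JAG2 fell by 1.78 (adjusted p = 0.000115).

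**Figure D5:**
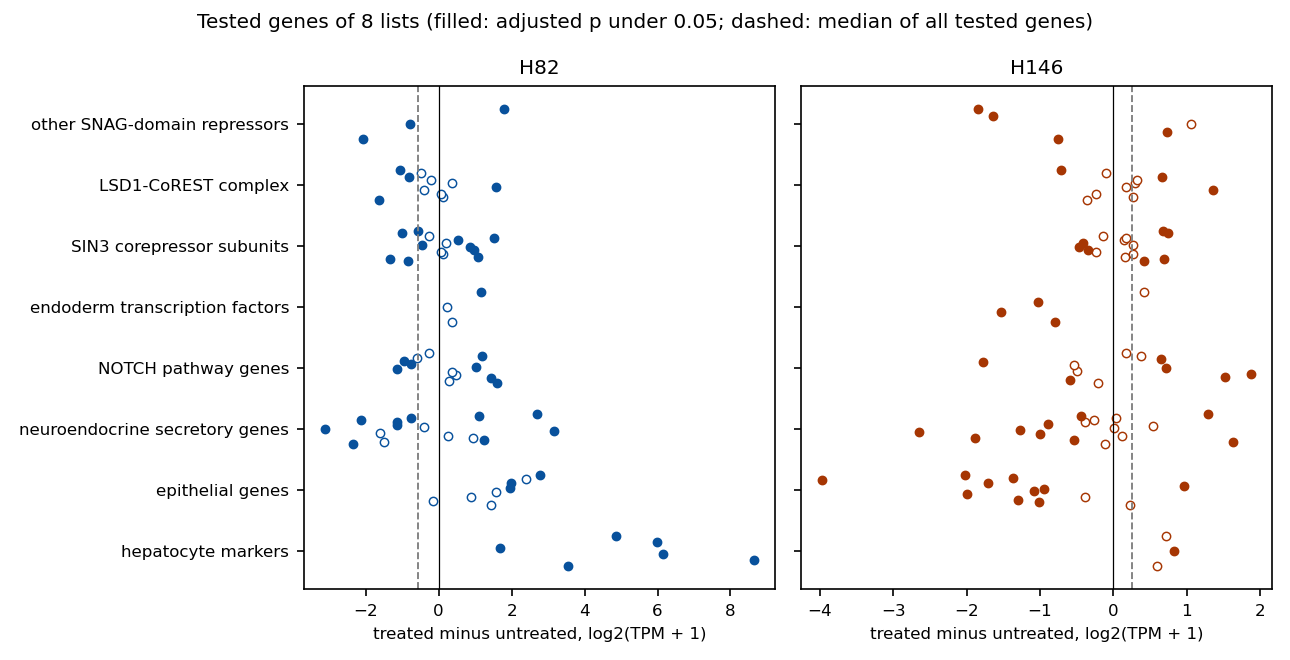
Treated minus untreated difference on the log2(TPM + 1) scale for every tested gene of 8 lists in H82 (blue) and H146 (brown), filled where the adjusted p was under 0.05, with a dashed line at the median of all tested genes (-0.56 and 0.25). Epithelial genes lie mostly left of 0 in H146, with a median of -1.19, and all 6 hepatocyte markers lie right of 0 in H82, 5 of them having passed the filter only through treated libraries. The horizontal scales of the panels differ.

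Markers of other cells that a culture could hold were followed too. Of 6 fibroblast markers, 3 were tested in each line. COL1A2 and DCN in H82 and COL3A1 in H146 passed only through the treated libraries, and COL1A2 rose in H146, from at most 3.21 TPM to at least 8.07 TPM (adjusted p = 0.000429). The fibroblast sum went from between 1.70 and 2.50 TPM to between 7.98 and 35.3 TPM in H82 and from between 6.78 and 8.78 TPM to between 17.1 and 32.7 TPM in H146, and in each line its lowest treated value was above the highest treated value of MYT1, 2.66 and 11.1 TPM. Among 5 leukocyte markers, LYZ passed in H146 only through the treated libraries, where it reached 2.68 TPM, and the sums were at most 20.2 TPM in any library. Of 5 endothelial markers, none was tested in H82, and VWF went from at most 2.25 TPM to at most 0.137 TPM in H146, having passed only through the untreated libraries, with sums of at most 12.6 TPM. Of 5 tuft cell markers, 2 were tested in H82, and AVIL, which passed only through the untreated libraries, went from at most 7.51 TPM to at most 0.566 TPM. The 1 tuft cell marker tested in H146 did not pass. The part of other cells in the results for the 9 factors was not tested.

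For each factor that reached 5 TPM, the 3 genes whose log2(TPM + 1) followed it best over the 13 libraries were named by Pearson's r. For most factors this reflects mainly the gap between the lines that all libraries share. INSM1 was followed by OVOL2 (0.996), FOXA2 (0.996) and CTSF (0.995), and FOXA2 by HTATIP2 (0.998), OVOL2 (0.997) and NMU (0.997). INSM2 was followed by PTPRN (0.994), KLF11 (0.993) and NPDC1 (0.993). FOXA1 was followed by RCBTB2 (0.995), SLC16A14 (0.995) and ADGRL3 (0.993). For PROX1 these were FAT3 (0.982), ODZ4 (0.981) and TIMP2 (0.980). MYT1, the factor with the smallest gap between the untreated lines among those called (-0.57), fell under treatment by more than that gap in both lines. MYT1 was followed by ACBD7 (0.988), RP11-259P6.2 (0.983) and USP32P3 (0.977). MYT1L had PCDHB9 (0.997), AC092159.2 (0.996) and DCLK1 (0.996), and ST18 had MSC (0.981), TCERG1L (0.979) and KLF4 (0.978).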

How the data were processed

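RNA was sequenced from 6 H82 and 7 H146 libraries. Per the study's methods, the authors aligned reads to hg38 with STAR using GENCODE and compared groups with DESeq2. The submitters' processing notes also name Trim Galore 0.4.4, without its role. The deposited TPM values, 1 table per line, are the authors' own, and how gene length entered them is not given in the sources used here. From these, log2(TPM + 1) was fitted per line with limma 3.58.1 in R 4.3.3 (lmFit, eBayes with trend, two-sided, Benjamini-Hochberg over all genes at 1 TPM or more in at least 3 libraries, threshold 0.05). The lines were compared in 1 fit over all 13 libraries. Single genes below the filter were compared by exact permutation of mean log2(TPM + 1). Means are given with SD, and fitted differences with SE. The fits were tested on simulated data. The 9 genes, the gene lists and the tests were chosen with earlier results of these data known. Genes named from a list are the largest rise and fall past the threshold in each line, and neighbours are those that passed the filter, and 2 genes that the rule names are not reported here. Values named beyond that were chosen after they were seen. Alternatives changed the pseudocount, the filter, the scaling between libraries, the variance trend, a replicate term and each library in turn. The TPM tables give no read counts, so no counting interval is given.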

Additional observations from a re-analysis of the deposited data

Results flagged for a closer look

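The response to FHD-286 differed between the lines, by the interaction term of a limma fit over all 13 libraries, for 7 of the 9 factors, against 59.3% of all genes tested. Values are the H146 response minus the H82 response on the log2(TPM + 1) scale. They were -2.69 for INSM1 (adjusted p = 0.0151), 0.99 for INSM2 (adjusted p = 0.0214) and 1.36 for FOXA1 (adjusted p = 0.00295). Those of PROX1, MYT1 and ST18 were -1.63 (adjusted p = 0.00821), 2.48 (adjusted p = 3.66e-05) and -1.25 (adjusted p = 0.0498). That of FOXA2 was -3.34, given without a p because untreated H82 was listed at 0 and the pseudocount sets the value. INSM1, PROX1 and MYT1 passed in all 20 alternatives. FOXA2 passed in all 20 too, with values from -6.24 to -2.09, but is not used as support. INSM2, FOXA1 and ST18 did not pass in all, with adjusted p up to 0.86, 0.0986 and 0.124.

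Among the 4 treated H146 libraries, 1 value stood far from the others. NKX2-1 was at 0.486 TPM in treated H146 replicate 1 and between 0.980 and 1.04 TPM in the others, a gap of 0.888 of the whole range. About 1 in 20 groups of this size would show such a gap by chance, and 9 were looked at. NKX2-1 was below the filter in both lines.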

How the results depend on the processing

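Over 576 alternative values of the 9 factors, 493 kept their direction and their side of the threshold, 61 lost a call, 15 gained one, 5 changed direction and 2 moved by more than the spread between replicates. The 5 changes of direction were of values that had not passed, apart from INSM2, and were FOXA1 in H82 without treated replicate 2 (-0.22, against 0.29 as the highest without 1 library), INSM2 between the lines under quantile normalization (-0.10), NKX2-1 between the lines without treated H146 replicate 1 (0.04) or without treated H82 replicate 2 (0.29, against -0.25 as the lowest without 1 library), and MYT1L between the lines under quantile normalization (-0.10). In H82, the count of lower factors, 2, became 1 under quantile normalization. The count of higher factors there was 2 with FOXA2, which passed the filter only through treated libraries. This count became 1 with a pseudocount of 0.1, 0 with no filter, with a mean above 2 TPM or without the variance trend, and 4 under quantile normalization. In H146, 5 lower became 3 with no filter, and 2 higher became 1 under either scaling. Leaving out 1 library gave 2 throughout for factors lower in H82, 0 to 3 higher in H82, 2 to 5 lower and 1 to 2 higher in H146, 5 to 7 for the difference between the lines and 7 to 9 between the untreated lines. Where a count was 0, INSM1 was lost, with an adjusted p of at most 0.125 in limma, as was the call of FOXA2. At an unadjusted p under 0.05 INSM1 still passed in the full set of libraries, and did not without 1 untreated H82 library. Averaging treated H146 replicates 3 and 4, chosen after seeing the data, gave 4 lower and 2 higher. Among the gene lists, median-of-ratios scaling also changed the SNAG list in H82 from 2 lower to 1 and in H146 from 1 higher to 0, endoderm factors in H82 from 1 higher to 2, lung genes in H146 from 1 lower to 2, neighbours in H146 from 2 lower to 3 and the LSD1-CoREST list in H146 from 1 lower to 3. Quantile normalization changed epithelial genes in H82 from 3 higher to 5 and endoderm factors there from 1 to 3. The cause of these changes was not tested.

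The labels do not say whether equal replicate numbers pair the libraries. Correlations of same-numbered deviations ran from -0.111 to 0.027, and those of other pairs from -0.038 to 0.107. Values this small cannot show whether the libraries were paired. With a replicate block, 2 factors were lower and 2 higher in H82, 3 lower and 1 higher in H146, and 7 differed between the lines. The untreated lines could not be compared under that block, because it takes up the difference between the lines. ST18 in H82 and NKX2-1 between the lines, treated or not, were not in the fit at a mean above 2 TPM. The tables hold no reads per library, so no limit from depth is given.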
